A study of Mus musculus with 9 samples.

Results

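Just past the 3′ end of H3f3b, which encodes the histone variant H3.3, 4 neighbouring regions were listed by the authors with about 2-fold higher chromatin accessibility after 3 h of ammonium acetate. None of the 4 passed an adjusted p below 0.05, and no region inside the gene was listed. The regions were chosen as those in the authors' 3 lists that carry the symbol H3f3b or that overlap its RefSeq gene body on mm10 plus 5 kb on each side. The rule found 4 of the 1832 regions in the lists, all by position, since 0 lines of the tables carry the symbol H3f3b. The lists of 3 h against untreated and of 24 h against 3 h hold regions with a raw p below 0.005 and a change of 1.5-fold or more, and the list of 24 h against untreated holds those with an adjusted p below 0.05. The choice of regions thus rests on measured values, which are given as a description. The words higher and lower give only the sign of a listed log2 fold change, with or without a passing adjusted p.

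The assay was ATAC-seq, in which a transposase inserts adapters into open DNA, on myotubes grown from C2C12, an immortalised mouse myoblast line that fuses into multinucleate muscle cells in low-serum medium. The 9 libraries form 3 groups of 3: untreated myotubes, myotubes given 10 mM ammonium acetate for 3 h, and myotubes given the same dose for 24 h. The study addressed the response of muscle cells to excess ammonia, and no group received acetate without ammonium, so ammonia and acetate cannot be told apart. The labels call the libraries biological replicates and give no harvest time for the untreated group. Values per library are not part of the tables, so library depth is unknown here, and replicate spread is seen only as the error in the authors' edgeR test. Muscle markers could not be checked, because the tables give differences for listed regions and no level per group. In bulk libraries, a site opening in all cells and a larger share of cells with the site open cannot be told apart.

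Histone H3.3 is the form of histone H3 that cells make and load outside DNA replication. The HIRA complex, with ASF1 and UBN proteins, places it at transcribed genes and regulatory elements, and DAXX with ATRX places it at repetitive heterochromatin. H3f3a and H3f3b encode the same protein, and their introns and polyadenylated transcripts set them apart from the clustered histone genes that are transcribed during DNA replication. In cells that no longer divide, muscle fibres included, H3.3 replaces much of the replication-coupled H3 over time.

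H3f3b occupies chromosome 11, 116021961 to 116026039, on the minus strand (RefSeq, GRCm38, the assembly of mm10), so its 3′ end lies at the lower coordinate. The 250 bases before its annotated transcript start (GRCm38.p6, chr11:116024505-116024754, minus strand) are shown because this promoter was not listed in any comparison, and the listed regions are placed relative to the other end of the gene. This start lies 1535 bp inside the RefSeq gene body, which reaches further upstream, so the window is within the gene body as drawn here. Capitals mark the motif matches described after the sequence.
H3f3b promoter: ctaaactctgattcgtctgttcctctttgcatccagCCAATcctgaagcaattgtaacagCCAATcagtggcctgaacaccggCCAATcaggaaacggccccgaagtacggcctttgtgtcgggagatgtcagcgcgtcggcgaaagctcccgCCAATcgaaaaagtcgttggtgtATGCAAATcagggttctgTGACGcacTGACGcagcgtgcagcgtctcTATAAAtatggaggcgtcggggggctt

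Both strands were searched for 9 motifs. The CCAAT box (CCAAT) occurred 4 times, and 33.8% of the 32851 RefSeq promoter windows of the same length held at least 1, while 0.840% held 4 or more. The core of the cyclic AMP response element (TGACG) occurred 2 times, against at least 1 match in 17.8% of windows and 2 or more in 3.90%. A TATA box (TATAAA) began at position -27 from the start, with a match in 12.4% of windows. The octamer (ATTTGCAT, here on the opposite strand and so printed as its reverse complement) was present once, against 1.60% of windows. The GC box (GGGCGG, in 32.7% of windows), the full cyclic AMP response element (TGACGTCA, 1.55%), the AP-1 site (TGACTCA, 4.46%), the E box (CACGTG, 6.02%) and the CArG box (1.47%) had no match in this window. None of the matched motifs overlapped another. The window holds 19 CpG dinucleotides and is 54% G or C.

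The 4 listed regions stood side by side between 322 and 4147 bp past the 3′ end of H3f3b. They are numbered here from the gene outwards. Region 1 (chr11:116021331-116021639) is 309 bp wide and begins 322 bp from the gene. Region 2 (chr11:116019869-116020902) is 1034 bp wide and begins 1059 bp from it. Region 3 (chr11:116018923-116019737, 815 bp) begins 2224 bp away, and region 4 (chr11:116017814-116018562, 749 bp) begins 3399 bp away. Their sequences are not printed, because no genome sequence was used here.

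All 4 were annotated as intergenic in the authors' deposited tables. Regions 1 to 3 also touched a CpG shelf, the outer flank of a CpG island, and 0 of the 4 touched an island or a shore. Together the regions cover 2907 of the 3826 bp they span, with gaps of 131 to 428 bp between them. The deposited region numbers run in order of position, and these 4 numbers follow each other without a break, so no other called region lies between them.

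**Figure D1:**
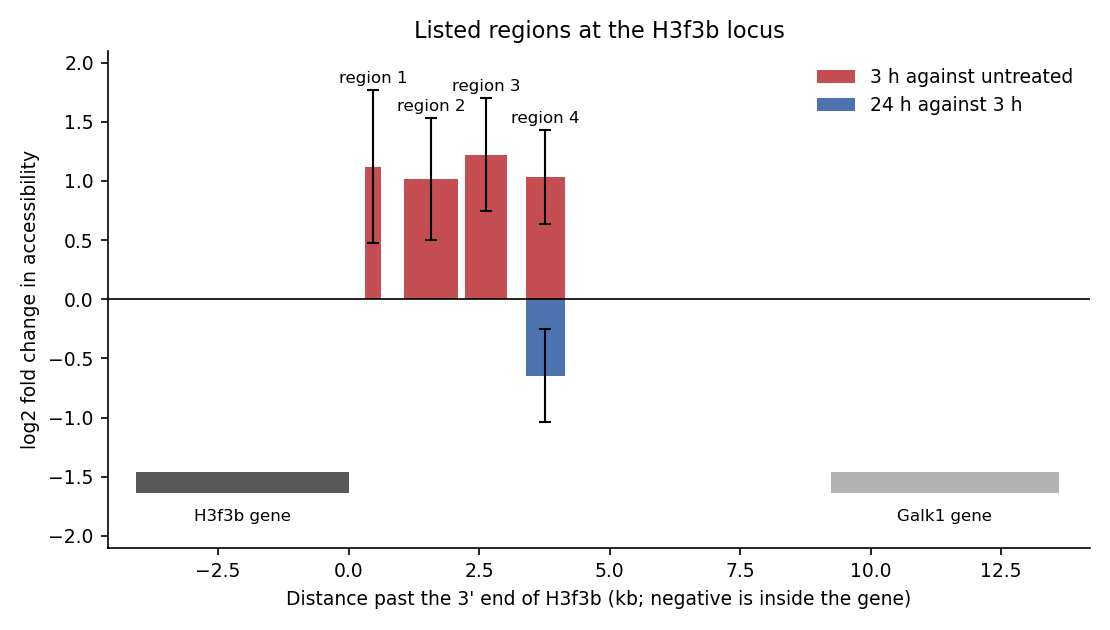
Listed regions at the H3f3b locus, plotted by distance past the 3′ end of the gene in kb (x axis) and log2 fold change in accessibility (y axis), with bar width equal to region width and whiskers for the approximate 95% interval. The 4 red bars (3 h against untreated) stand between 1.02 and 1.22, the single blue bar (24 h against 3 h, region 4) is at -0.64, and no listed region lies in the H3f3b or Galk1 gene drawn in grey.

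For 3 h against untreated, the 4 regions had positive values of similar size. The SE given here is approximate, obtained from the log2 fold change and the F statistic that the authors deposited. The regions were chosen through these same values, so every 95% interval had to exclude no change. The intervals take no account of that choice, and the sizes may be overstated by it. The authors' deposited table gave region 1 a log2 fold change of 1.12, with an approximate SE of 0.31 (2.18-fold, 95% interval 1.39 to 3.40). It was 1.02 in region 2 in the authors' deposited table, with an approximate SE of 0.25 (2.02-fold, 1.42 to 2.89). Region 3 had the largest of the 4 values, a log2 fold change of 1.22 with an approximate SE of 0.23 in the authors' deposited table (2.33-fold, 1.68 to 3.25).

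Region 4, the farthest from the gene, had a log2 fold change of 1.04 with an approximate SE of 0.19 in the authors' deposited table (2.05-fold, 1.56 to 2.70). The highest and lowest of the 4 log2 fold changes differed by 0.21, which is about the size of the SE of a single region (0.19 to 0.31), and they followed no order with distance from the gene. With these SEs, the limits of the list admit region 1 only from 0.97, region 2 from 0.77, region 3 from 0.72 and region 4 from 0.60. Lower values could not have been listed, so nothing is read from the small difference. The regions come from the same libraries and adjoin each other, so they are not independent measurements.

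The authors' deposited table gave an adjusted edgeR p of 0.338 for regions 3 and 4, 0.727 for region 2 and 0.961 for region 1. The unadjusted edgeR p-values in the authors' deposited table were 2.02e-05 for region 4, 2.47e-05 for region 3, 0.000491 for region 2 and 0.0016 for region 1. That all 4 were below 0.05 was fixed in advance, because the list holds only a raw p below 0.005. By p-value they held ranks 8, 10, 97 and 241 of the 588 listed regions. The list holds 0.403% of the 146047 regions tested, and 0.224% of those tested were listed as higher. As the regions were picked from this list, nothing is read from these shares. Of all regions tested in this comparison, 0.000685% passed the adjusted threshold.

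The H3f3b regions differed from most of the 3 h list in how strongly they were covered. Their mean log2 CPM in the authors' deposited table, over libraries, was 3.18, 5.27, 4.64 and 4.26 for regions 1 to 4, which is 9.04, 38.6, 25.0 and 19.2 CPM (counts scaled to library size). The median of the list was 2.50. Regions 2, 3 and 4 stood at the 98.6th, 96.3rd and 94.4th percentile of the list for coverage, and region 1 at the 73.0th. CPM counts reads over a whole region and was not adjusted for width. For width, regions 2, 3 and 4 stood at the 89.3rd, 76.0th and 70.7th percentile, and region 1 at the 10.0th.

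By size of change alone they were less prominent, with ranks of 62, 98, 43 and 91 of 588 for regions 1 to 4. Among the 34 listed regions covered at least as strongly as region 4, 16 were higher at 3 h, and regions 3, 4 and 2 held places 1, 3 and 4 of those 16 by log2 fold change. The other 13 had a median log2 fold change of 0.69 in the authors' deposited table, with a highest value of 1.04. This grouping by coverage was made after the values were seen, took no account of width and carries no test.

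**Figure D2:**
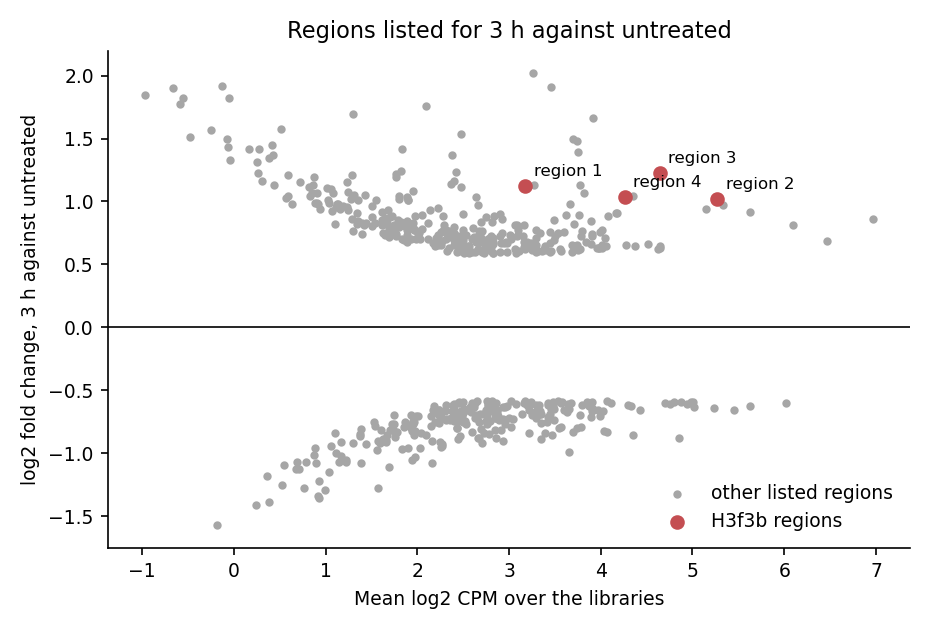
The 588 regions listed for 3 h against untreated, by mean log2 CPM over the libraries (x axis) and log2 fold change (y axis), with the 4 H3f3b regions in red. Regions 2, 3 and 4 lie on the well covered right side, above most higher regions of like coverage, and the empty band around 0 is the authors' limit of a 1.5-fold change.

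At 24 h the lists are limited differently from the 3 h list. None of the 4 regions was in the list of 24 h against untreated, which holds the 0.103% of tested regions with an adjusted edgeR p below 0.05. That limit would have kept 0 of the 4 at 3 h as well, so the 2 counts cannot be set against each other. In 24 h against 3 h, 1 of the 4 was listed, where the list holds 0.86% of tested regions and 0.385% were listed as lower. That was region 4, with a log2 fold change of -0.64 and an approximate SE of 0.19 in the authors' deposited table, 1.56-fold lower at 24 h than at 3 h. It did not pass the adjusted threshold (unadjusted edgeR p = 0.00261 and adjusted p = 0.466, as deposited by the authors), and 0 regions of that comparison did. With the SE at 3 h carried over, listing needed a change of 0.60 in region 4, 0.72 in region 3, 0.77 in region 2 and 0.97 in region 1. A change of -0.64 would thus not have been listed in regions 1 to 3, so their absence does not set them apart from region 4.

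Adding the 2 listed changes of region 4 places it 0.39 above untreated on the log2 scale at 24 h, or 1.31-fold, which is 37.7% of its log2 change at 3 h. The sum has no error of its own here. The 3 comparisons added up to within rounding in the 3 regions that all lists hold. The 3 h libraries enter both values, so the positive value at 3 h and the later negative value are not independent.

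For regions 1 to 3 the lists allow only limits at 24 h. The SE of a region was nearly the same in any 2 comparisons, with a median ratio of 0.995 over 165 pairs of listed values (5th to 95th percentile 0.965 to 1.03). If the SE at 3 h is carried over, absence from both 24 h lists leaves a log2 fold change against untreated between 0.51 and 1.15 in region 3. The corresponding limits are 0.24 to 1.25 in region 2 and 0.15 to 1.57 in region 1. These are limits set by the listing thresholds and not confidence intervals.

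No region inside H3f3b, and none in the wider neighbourhood, was in any of the 3 lists. The next listed region on the far side lies 685 kb from the gene, at Otop3, and the next on the promoter side 468 kb away, at Prpsap1. Both were listed only as lower at 24 h than at 3 h, with log2 fold changes of -1.09 and -0.67 in the authors' deposited table (adjusted edgeR p of 0.518 and 0.485). Between these and the H3f3b regions the numbering leaves 102 and 70 called regions that no list holds. All 9 other protein-coding genes within 100 kb of H3f3b, Galk1 and Unk among them, had 0 listed regions within 5 kb.

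The outermost H3f3b region sits close to the limit of another assignment. Galk1, the galactokinase gene, is on the same strand, and its 5′ end faces the 3′ end of H3f3b across 9241 bp. Region 4 begins 5095 bp from Galk1 and region 1 lies 8612 bp from it. With a 10 kb flank all 4 regions would be counted at both genes, and the tables do not show which gene, if any, they serve.

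Within a 5 kb flank, H3f3b had more regions listed at 3 h than any other protein-coding gene. This lead depends on the flank: with 2 kb H3f3b had 2 regions, tied with other genes, with no flank it had 0 where the highest count was 2, and with 10 kb Galk1 also had 4. Of 21887 protein-coding genes, 1.94% had at least 1 region listed at 3 h within 5 kb: 383 genes had 1, 39 had 2, Atf3 had 3 and H3f3b had 4. The 588 regions also held 21 runs of 2 consecutively numbered regions, 1 run of 3 (at Atf3 and its neighbour Fam71a) and 1 run of 4, the H3f3b run. The direction was the same within every run of this list. In 24 h against 3 h, a longer list with the same limits, 4 genes had 4 regions within 5 kb and 11 had 3. These counts describe the lists, and the number of tested regions near each gene is not known.

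Position past a 3′ end was shared with many regions that were higher at 3 h. Regions that touched no RefSeq gene and lay within 5 kb of a protein-coding gene were sorted by the nearer end of that gene, a grouping made after the values were seen. Some of these regions carry an intron or upstream class in the tables' own annotation. Of the 327 higher regions, 48 (14.7%) lay in a 3′ flank and 14 (4.28%) in a 5′ flank. Of the 261 lower regions, 3 (1.15%) lay in a 3′ flank and 7 (2.68%) in a 5′ flank. Another 13 higher and 2 lower regions lay beside genes whose strand was not used here. Regions across a transcript start touch a gene and so are not in the 5′ count. The share of all tested regions that lie in either flank is not known, so nothing is read from the difference between flanks.

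Of the 48 higher regions in a 3′ flank, 4 were those at H3f3b, and the other 44 lay beside 36 genes, with 1 or 2 at each. Genes with 2 included Fos (log2 fold changes 1.39 and 1.76 in the authors' deposited table), an AP-1 subunit gene, and Klf2 (2.02 and 1.53), a zinc finger transcription factor gene. Hspb1, which encodes a small heat shock protein, had log2 fold changes of 0.94 and 1.08 in the authors' deposited table, and Anxa1, which encodes annexin A1, had 1.67 and 1.03. The median over all 48 was 1.02, and the 4 at H3f3b lay between 1.02 and 1.22. In 24 h against 3 h the 3′ flank held 22 higher regions (3.17%) and 20 lower ones (3.55%).

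**Figure D3:**
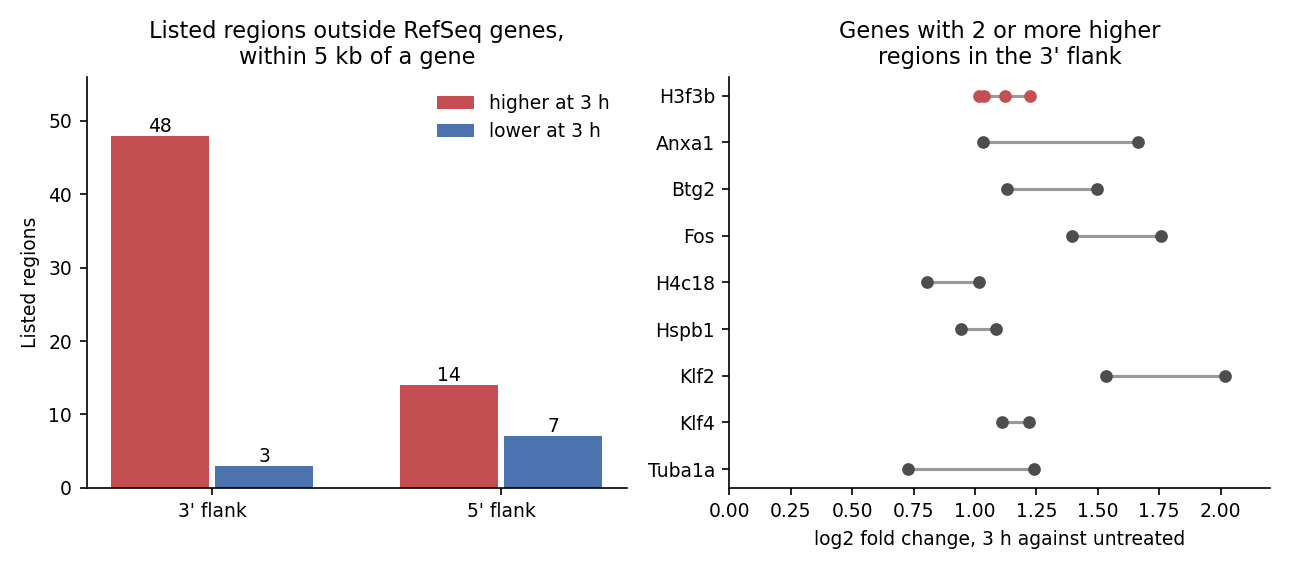
Left, the number of regions outside RefSeq genes listed at 3 h within 5 kb of the 3′ or 5′ end of a protein-coding gene, higher (red) or lower (blue): 48 and 3 in the 3′ flank, 14 and 7 in the 5′ flank. Right, the log2 fold change of each region (points) at the 9 genes with 2 or more higher regions in the 3′ flank, where H3f3b (red) has 4 points in a narrow range and every other gene has 2.

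Values at 3 other loci with several listed regions are set beside H3f3b, with no test of the differences between loci. Neat1, a nuclear long noncoding RNA gene, had 3 regions higher at 3 h (log2 fold changes 0.74 to 1.13 in the authors' deposited table) and 3 at 24 h that passed the adjusted edgeR threshold (1.19 to 1.50). Klf2 had 2 regions at 3 h, and 1 of them (2.02, adjusted edgeR p of 0.00976) was the only region of that list to pass. At 24 h against untreated 1 Klf2 region passed, with a log2 fold change of 1.37 in the authors' deposited table. Atf3, a stress-response transcription factor gene, had 3 higher regions at 3 h (1.15 to 1.57 in the authors' deposited table) and none at 24 h against untreated. In 24 h against 3 h it had 1 lower region (-1.50), the same pattern of lists as H3f3b. The 1.57 and the -1.50 belong to 1 region outside the Atf3 gene body. That region carries the symbol Fam71a and has a mean log2 CPM of 0.51, against a median of 2.50 in the 3 h list. All these comparisons share libraries.

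Region 4 was 1 of 33 regions higher at 3 h and then lower in 24 h against 3 h, 2 comparisons with the same 3 h libraries. Likeness was the distance between the pairs of log2 fold changes over these 2 comparisons, in log2 units. The nearest of the 32 others carries no gene symbol in the tables and lies 33 bp past the 3′ end of Prdx2, a peroxiredoxin gene, at a distance of 0.08. As deposited by the authors, its log2 values were 1.04 for 3 h and -0.73 for 24 h against 3 h. Among the 22 others with a symbol the nearest 5 were at Fosb, Tppp3, Nr2f1, Adgrl1 and Hs6st1, at distances of 0.18 to 0.25. At Fosb, another AP-1 gene, the authors' deposited table gave 0.97 at 3 h and -0.82 in 24 h against 3 h. At Tppp3, which encodes a tubulin-binding protein, they were 0.85 and -0.72, and at Nr2f1, a nuclear receptor gene whose region also carries the symbol A830082K12Rik, 0.84 and -0.62, in the authors' deposited table. Adgrl1, an adhesion receptor gene, had 0.81 and -0.69, and Hs6st1, a heparan sulfate sulfotransferase gene, 0.79 and -0.70, in the authors' deposited table. The derived value at 24 h against untreated was 0.39 in region 4, 0.32 at Prdx2 and 0.09 to 0.22 at the 5 with a symbol. Over all 32 others it ran from -0.42 to 0.74, and 2 lay above region 4, in the 3′ flanks of Fos (0.74) and Btg2 (0.62).

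Few genes of the H3.3 pathway were listed, as was the case for protein-coding genes in general. Of 19 genes for H3.3, its chaperones and its readers, 1 had a region listed at 3 h, H3f3b itself, beside 1.94% of all protein-coding genes. H3f3b was chosen through its listed regions, so its own count was fixed in advance, and the other 18 genes had none at 3 h. None had a region listed for 24 h against untreated, where 0.343% of genes had one. In 24 h against 3 h, 2 of 19 had a listed region, beside 3.5% of all genes. These were H3f3b and Chd2, so Chd2 was the only one apart from the chosen locus. At Chd2, a chromatin remodeller gene, the authors' deposited table gave a log2 fold change of -0.81 (approximate SE 0.21, adjusted edgeR p of 0.383). H3f3a, the other H3.3 gene, and the chaperone genes Hira, Ubn1, Ubn2, Cabin1, Asf1a, Asf1b, Daxx and Atrx had no listed region, which does not show that their accessibility did not change.

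Among 9 genes for other replacement variants, none was listed at 3 h. Cenpa, which encodes the centromeric H3 variant, had a region 4609 bp away that was lower in 24 h against 3 h (-0.70 on the log2 scale, adjusted edgeR p of 0.508, as deposited by the authors). Of 63 replication-dependent histone genes, 2 had a region listed at 3 h (3.17%), beside 1.94% of all protein-coding genes. Both, H4c18 and H2ac24, were counted through the same 2 regions, with log2 fold changes of 0.81 and 1.02 in the authors' deposited table (adjusted edgeR p of 0.9999 for both). These regions lay in the 3′ flank of H4c18, 83 and 870 bp from it, a position shared with the H3f3b regions.

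In 24 h against 3 h, 5 of the 63 replication-dependent genes had a listed region (7.94%), beside 3.5% of all protein-coding genes, and none had one for 24 h against untreated. The 5 counts came from 2 regions in the chromosome 13 histone cluster. The authors' deposited table gave -0.69 on the log2 scale for a region that touches H3c3, 962 bp from H2bc3 (adjusted edgeR p of 0.411). It gave -0.63 for a region that touches H3c2, 494 bp from H2ac4 and 4291 bp from H4c2 (adjusted edgeR p of 0.401). These 2 were at CpG islands and promoters, unlike the H3f3b regions, which were at neither.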

How the data were processed

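The lists and the H3f3b locus were chosen with earlier results of these data known. The submitters' processing notes name mm10 and, among the authors' tools, Bowtie2 2.3.4.1 and cutadapt 1.15 for reads, MACS2 for peaks and edgeR for tests. Their settings, a read shift for the transposase and the pooling behind the peak calls are, in those sources, not given.

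The authors deposited, per region, a log2 fold change, a mean log2 CPM, an F statistic (a score), a p-value and an adjusted p-value. By their values, the lists of 3 h against untreated and 24 h against 3 h are limited to a raw p below 0.005 and a change of 1.5-fold or more. The list of 24 h against untreated holds adjusted p below 0.05. Lines were collapsed to regions. The number tested was recovered from the adjusted p-values. The approximate SE was computed by dividing the log2 fold change, unsigned, by the root of F, with 21.5 denominator degrees of freedom for 95% intervals. The recovery of the number tested was checked on simulated p-values. The approximate SE was not tested against counts, so how near it comes to the error of the edgeR fit is not known. The libraries could not be refitted, since the tables hold no values per library.

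By rule, genes named were H3f3b, members of the 3 gene lists with a region within 5 kb, neighbours within 100 kb with such a region (0 genes), and the 5 regions with a symbol nearest region 4. H3f3a and the H3.3 chaperone genes without a listed region were named beyond this rule. Galk1, Unk, Prdx2, the genes compared as loci, and those named in the 3′ flank or as the next listed, were chosen after their values were seen. Strands came from the RefSeq promoter table, which gave one for 17492 of 21887 protein-coding genes. The software was scipy 1.17.1, pandas 2.3.3 and numpy 2.4.6 under Python 3.11.15.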

Additional observations from a re-analysis of the deposited data

How the results depend on the processing

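The count of 4 H3f3b regions at 3 h rests on the 5 kb flank: it was 0 by the tables' own gene symbols and 0 within the gene body, and 4 with flanks of 10 and 50 kb. With the 24 h list's highest raw p (5.13e-05) as the limit it was 2. It was 2 at an adjusted p below 0.5, 0 at an adjusted edgeR p below 0.05 (4 at an unadjusted p below 0.05), and 9 when lines were counted in place of regions. The count of 1 in 24 h against 3 h was 0 by symbol, 0 in the gene body, 0 at the same raw p, 0 at an adjusted p below 0.05, and 2 as lines. The best rank at 3 h was 8 by p and 43 by absolute log2 fold change, and a rank among promoter regions does not exist, since no H3f3b region is at a promoter. The H3.3 list gave 1 gene at 3 h, and 0 by symbol or without a flank. In 24 h against 3 h it gave 2 genes, and 1 by symbol or without a flank.

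Alternatives chosen after seeing the data were these. The number of protein-coding genes with at least 4 regions at 3 h was 1, against 0 with no flank, 0 with 2 kb and 2 with 10 kb (H3f3b and Galk1, by the same regions). The 3′ flank held 48 higher regions, against 28 within 2 kb, 51 within 10 kb and 44 without H3f3b. The longest run was 4 also when 1 unlisted number was allowed. No paired analysis was possible because no table gives values per library, and for the same reason no replicate was left out. The missing depth per library and the shared libraries limit every value given.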
